A study of Homo sapiens with 12 samples.

Results

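The comparison set the day 20 libraries against the day 10 libraries of a differentiation of human embryonic stem cells towards γδ T cells, passing over the libraries of the day in between. It compared 6 of the 12 libraries of the series, 3 at day 10 and 3 at day 20, chosen by the days in the labels and described across all genes. The spread behind the p-values was estimated from all 12 libraries. Every library came from wild-type H9 (WA09), an established human embryonic stem cell line, differentiated in vitro with cytokines, and the labels give all of them the same batch. H9 cells had been kept on mouse embryonic fibroblast feeders before differentiation. Per the labels, the cultures received CHIR99021, BMP4, Activin A and the ROCK inhibitor Y-27632 at day 0, then VEGF from day 2, with bFGF added at day 3. At day 6 they were moved to VEGF, bFGF, Flt3L, IL-7, SCF and the TGF-β receptor inhibitor SB431542. At day 10 the base medium was exchanged for MEM-α, with 20% FBS, GlutaMAX and MAP, and the factors became DLL4, a ligand of Notch, with Flt3L, SCF and IL-7. The labels call the day 10 libraries haematopoietic progenitor cells and the day 20 libraries T progenitor cells. Only a single cell line was used, and the days differ in medium as well as in time, so the effects of the 2 cannot be told apart. Nothing in the labels ties the 3 replicates of a day to separate cultures, and the p-values therefore measure the spread among libraries alone, part or all of which may be technical.

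Blood formation from pluripotent cells begins with mesoderm and haemogenic endothelium, and its earliest products are red cells, megakaryocytes and macrophages like those of the yolk sac. Progenitors that follow can make granulocytes, monocytes, mast cells and lymphoid cells. Commitment to the T lineage is driven by Notch signalling, which turns on TCF7, GATA3 and BCL11B, and is followed by expression of the CD3 chains, the pre-T-cell receptor and the RAG recombinase. GATA1 and TAL1 direct the red cell and platelet programmes, while SPI1 (PU.1) and the C/EBP factors direct the myeloid ones.

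Levels are given as CPM, which are counts scaled to a common library total, with library sizes adjusted by edgeR's TMM method. Libraries held between 27026196 and 36606215 counts at day 10 and between 28537477 and 29946496 at day 20. A count was above 0 for 22453 to 23130 genes at day 10 and for 24573 to 24771 at day 20. The first principal component of the 6 libraries held 89.6% of the variance and parted the days. Mitochondrially encoded genes took 5.45% ± 0.263 of counts at day 10 and 5.47% ± 0.292 at day 20 (SD, n = 3 each, two-sided exact permutation p = 1.0, where 0.1 is the smallest possible). Ribosomal protein genes took 3.98% ± 0.0772 and 3.67% ± 0.0819 (exact permutation p = 0.1).

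Of 20183 genes tested with edgeR's quasi-likelihood test, 7400 (36.7%) rose and 6906 (34.2%) fell at a Benjamini-Hochberg adjusted p under 0.05, so 70.9% of genes were called in all. These shares are the background for every count of list members given here. Libraries of the 2 days did not overlap for 73.9% of genes, with day 20 above day 10 for 37.8% and below for 36.1%. The median log2 fold change (day 20 minus day 10) over all tested genes was 0.03, with quartiles of -0.56 and 1.14. Large changes were mostly rises. At least 2-fold changes were called upward for 5022 genes (24.9%) and downward for 2390 (11.8%), at least 10-fold changes for 1794 and 301, and at least 100-fold changes for 393 and 11. In bulk libraries, fewer cells of a type and less RNA per cell cannot be told apart, and this applies to every level below.

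**Figure D1:**
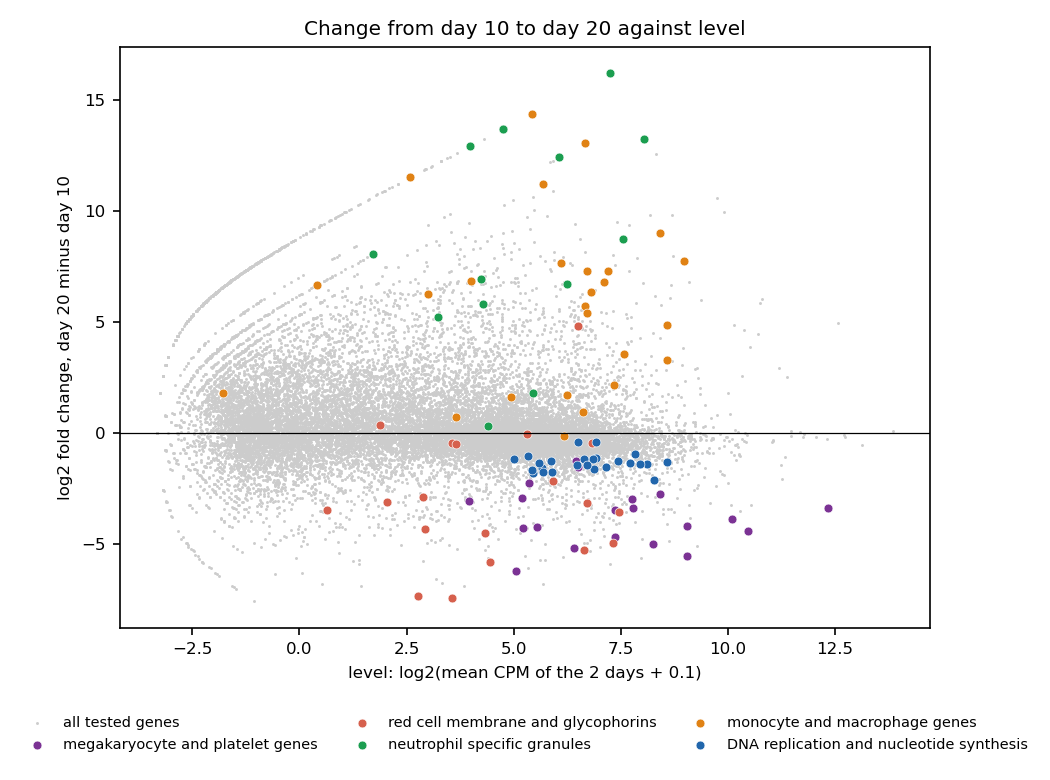
Each point is 1 of the 20183 tested genes, plotted by its level (log2 of the mean CPM of the 2 days plus 0.1, horizontal) and its log2 fold change, day 20 minus day 10 (vertical), with 5 gene lists in colour. All neutrophil specific granule genes lie above 0, all megakaryocyte and platelet genes and all replication genes lie below it, and 1 red cell membrane gene (CD36) sits far above the rest of its list.

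The labels were first checked against the markers of the named cell types. Of 6 haematopoietic progenitor markers, 3 rose and 3 fell. CD34, the surface sialomucin used to isolate progenitors, had 18.7, 20.7 and 22.3 CPM at day 10 and 1.25, 1.55 and 1.14 CPM at day 20, a 15.6-fold fall (log2 fold change -3.97, SE 0.18, adjusted p = 3.6e-23). RUNX1, the factor needed for blood emergence, fell 2.05-fold, and SPN (CD43) 2.15-fold. KIT, the SCF receptor, rose from 50.4, 48.8 and 56.8 CPM to 117, 114 and 120 CPM. PTPRC (CD45), the tyrosine phosphatase of nearly all white blood cells, had 10.8, 11.6 and 11.7 CPM at day 10 against 302, 308 and 299 CPM at day 20, a 26.6-fold rise (adjusted p = 1.1e-47). MYB rose 1.97-fold. The groups did not overlap for any of these markers.

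Most of the defining T progenitor markers were at or near 0 in the libraries labelled T progenitor cells at day 20. Of 15 such markers, 6 rose, 2 fell, 2 were not called and 5 were too low to be tested, and 8 were below 1 CPM in every library of both days. DNTT, the terminal transferase of rearranging lymphocytes, had 0 counts in all day 20 libraries. LCK, the kinase of the T-cell receptor, stood at 0.152, 0.172 and 0.179 CPM at day 20, and RAG2 at 0.0608, 0.115 and 0.478 CPM. CD3D had 0.517, 0.0573 and 0.299 CPM at day 20 and CD3G 0.0912, 0.086 and 0.239 CPM. CD3E, with 0 counts at day 10, reached 0.304, 0.373 and 0.299 CPM, which is at least 10.9-fold above the day 10 floor of 3 counts over the 3 libraries (adjusted p = 0.00022). These CD3 and LCK levels come from 33 counts or fewer summed over the libraries of a day.

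Markers of early T specification moved in both directions. CD7, a surface marker of early lymphoid cells, fell from 18.2, 20.3 and 16.6 CPM to 3.28, 3.04 and 3.77 CPM (5.47-fold, adjusted p = 9.1e-19). PTCRA, the invariant partner of the pre-T-cell receptor, went from 7.05, 7.35 and 8.03 CPM to 1.82, 1.35 and 1.76 CPM (4.54-fold lower, adjusted p = 1.8e-20). Both were lower in every day 20 library. IL7R, the IL-7 receptor α chain, rose from 0.191, 0.753 and 0.405 CPM to 48.3, 45.2 and 47.8 CPM (98.5-fold, adjusted p = 3.1e-35), and TCF7 from 4.22, 4.29 and 5 CPM to 11.1, 8.97 and 9.65 CPM (2.2-fold). NOTCH1 rose 1.28-fold, from between 198 and 208 CPM to between 248 and 272 CPM. BCL11B, which seals T commitment, stood at 0.222, 0.176 and 0.135 CPM and then 0.608, 0.287 and 0.598 CPM (adjusted p = 0.044), a call that was lost under 11 of the alternatives tried, among them the omission of any day 10 library. CD5 also passed the test, from 24 to 59 summed counts (adjusted p = 0.043), but not without day 10 replicate 1 (adjusted p = 0.15), day 10 replicate 3 (0.18) or any 1 of the day 20 libraries (0.054 to 0.11). GATA3 (between 6.31 and 6.54 CPM, then 7.08 to 8.85 CPM, adjusted p = 0.054, called under 7 alternatives) and RAG1 (3.33, 4.97 and 4.22 CPM, then 4.17, 3.07 and 2.18 CPM, adjusted p = 0.089, called lower when replicate 1 of either day was left out) were not called. Without NOTCH1, the T progenitor markers summed to between 40 and 44.8 CPM at day 10 and between 70.4 and 79.8 CPM at day 20. IL7R alone held between 45.2 and 48.3 CPM of the day 20 sum and less than 1 CPM of the day 10 sum. The higher sum therefore reflects IL7R and not the marker panel as a whole.

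**Figure D2:**
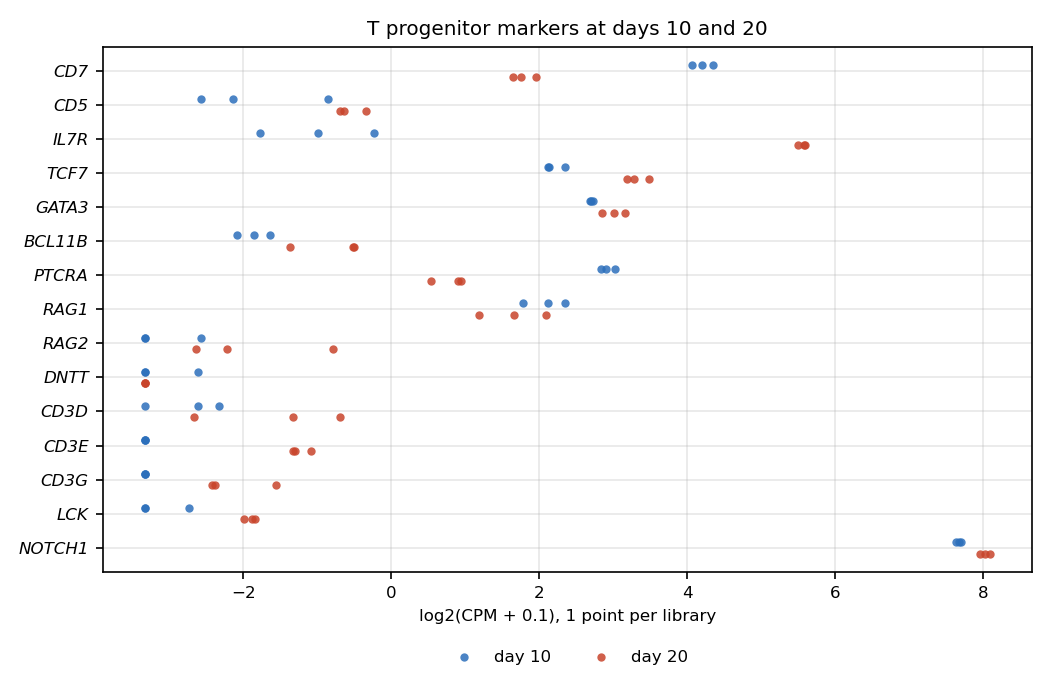
The 15 T progenitor markers are shown as log2(CPM + 0.1), 1 point per library, with day 10 in blue and day 20 in red. IL7R lies far to the right at day 20 and CD7 and PTCRA to the left, while RAG2, DNTT, CD3D, CD3E, CD3G and LCK, like CD5 and BCL11B, stay below 0 on the axis on both days.

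Genes of neutrophil granules were among those with the largest rises. Neutrophils fill their primary granules first, with myeloperoxidase and serine proteases, and their specific granules later, with lactoferrin and antimicrobial peptides. Each of the 11 tested genes on the primary granule list rose, with a median log2 fold change of 6.05. That list also holds RNASE3 and RNASE2, and RNASE2 is on the eosinophil list too, so its counts and sums are not those of neutrophils alone. MPO, myeloperoxidase (chromosome 17, 58269856 to 58280935, minus strand, GRCh38), had 392, 385 and 368 CPM at day 10 and 11823, 11912 and 11842 CPM at day 20, a 31.1-fold rise (log2 fold change 4.96, SE 0.03, adjusted p = 1.1e-55). ELANE, neutrophil elastase, rose from 0.54, 0.728 and 0.641 CPM to 604, 576 and 573 CPM (902-fold, adjusted p = 1.2e-52). CTSG, cathepsin G, rose 664-fold and AZU1, azurocidin, 113-fold. PRTN3, proteinase 3, rose 58.7-fold, and LYZ, lysozyme, from 53.2 ± 1.24 to 3519 ± 76 CPM. No day 10 library reached any day 20 library for these genes. Summed over the list, levels lay between 704 and 725 CPM at day 10 and between 21497 and 21941 CPM at day 20.

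On the list of specific granule genes, which also holds defensins and BPI, 14 of 14 were called higher with a median log2 fold change of 8.41. The list summed to between 38.9 and 43.6 CPM at day 10, most of it from LCN2 (mean 18.7 CPM) and MMP9 (mean 19.2 CPM). MMP9 rose 3.54-fold. OLFM4, olfactomedin 4 (chromosome 13, 53028759 to 53052057, plus strand), had 0, 0.1 and 0.0338 CPM at day 10 and 544, 525 and 513 CPM at day 20 (9850-fold, adjusted p = 4.4e-53). LTF, lactoferrin, had 2 counts at day 10 and 131, 132 and 138 CPM at day 20, a ratio of 6730 with a 95% counting interval from 1860 to 55600. CAMP, the cathelicidin precursor, had 0 counts at day 10 and 57.4, 52.5 and 52.1 CPM at day 20, at least 1820-fold higher. MMP8, neutrophil collagenase, was at least 1060-fold and CEACAM8 at least 1800-fold higher than a day 10 count of 0. The defensin gene DEFA3 had 0 counts at day 10 and 327, 296 and 288 CPM at day 20, but it shares nearly identical copies and its own value is uncertain. LCN2, lipocalin 2, changed little, from between 16.1 and 20.6 CPM to between 21.2 and 25.1 CPM (1.26-fold, adjusted p = 8.1e-05).

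Eosinophil and mast cell genes rose as well. All 10 eosinophil genes were higher at day 20, with log2 fold changes from 4.63 to 10.59. EPX, eosinophil peroxidase, went from 1.05, 1.03 and 1.28 CPM to 1725, 1721 and 1710 CPM (1540-fold, adjusted p = 1.8e-57). PRG2, the major basic protein, rose from 98.7, 102 and 108 CPM to 2616, 2506 and 2532 CPM, and CLC, the Charcot-Leyden crystal protein, from 3.33 ± 0.582 to 842 ± 38.2 CPM. In every case the day 20 libraries lay above the day 10 libraries. IL5RA, the IL-5 receptor chain of eosinophils, rose 150-fold and the eotaxin receptor CCR3 from 2 counts at day 10 to between 22.2 and 23.2 CPM. Among 12 tested mast cell and basophil genes 11 rose, but not all to high levels. FCER1A, MS4A2 and TPSD1 reached means of only 2.1, 1.08 and 1.41 CPM at day 20. HDC and KIT, with means of 167 and 117 CPM at day 20, already had 39.3 and 52 CPM at day 10. CPA3, mast cell carboxypeptidase, rose from 0.0635, 0.151 and 0 CPM to 88.5, 85.3 and 91.1 CPM (1060-fold), and the tryptase gene TPSAB1 195-fold, although tryptase genes are close copies and can share reads. GATA2, which serves progenitors and mast cells alike, was at 172, 171 and 165 CPM and then 161, 173 and 160 CPM and was not called (adjusted p = 0.35). The mast cell protease gene CMA1 was too low to be tested on either day.

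Monocyte and macrophage genes were mostly higher at day 20. Macrophages engulf debris and pathogens and sense them through scavenger, Fc and Toll-like receptors. Among 26 monocyte and macrophage genes 24 rose, 1 fell and 1 was not called, and the median log2 fold change was 6.3. CD14, the co-receptor for bacterial lipopolysaccharide (chromosome 5, 140631728 to 140633701, minus strand), had 0, 0.0502 and 0 CPM at day 10 and 208, 204 and 199 CPM at day 20. From 2 counts at day 10, that is a ratio of 10300 with a 95% counting interval from 2850 to 84900. The 120 bases of its RefSeq promoter (GRCh38.p14, chr5:140633212-140633331, minus strand, written in the direction of the gene from 156 to 37 bases before the start) are shown because SPI1, which binds GGAA cores, rose with it, with the searched letters GAGGAAG in capitals:
CD14: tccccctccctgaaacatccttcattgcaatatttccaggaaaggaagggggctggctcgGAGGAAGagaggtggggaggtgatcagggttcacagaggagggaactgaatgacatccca
Searched on both strands from 250 bases before to 50 after the start, GAGGAAG was found for 9 of the 20 list members with a promoter in the table and for 2 of 8 neutrophil primary granule genes, against 13.4% of all 27305 promoters and 14.5% of those of tested genes. The match describes the letters and shows no binding.

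CSF1R, the receptor that sustains macrophages, rose from 23.9, 24 and 26.6 CPM to 748, 727 and 728 CPM (29.6-fold, adjusted p = 7e-49). MRC1, the mannose receptor, went from 1.97, 3.39 and 2.67 CPM to 219, 222 and 222 CPM, and the haemoglobin scavenger receptor CD163 rose 53.9-fold. S100A12, an alarmin of monocytes and neutrophils, had 0 counts at day 10 and 87.9, 84.7 and 85.5 CPM at day 20, at least 2890-fold higher. The exceptions were small. AIF1 fell 1.11-fold (adjusted p = 0.02) with overlapping libraries, a call lost under 6 alternatives (adjusted p from 0.055 to 0.34). TIMD4 was not called on 8 and 30 summed counts (adjusted p = 0.083) but passed when day 10 replicate 3 (0.023) or day 20 replicate 1 (0.021) was left out.

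Genes of lipid handling and tissue repair in macrophages rose without exception among 18 tested. GPNMB, a lysosomal glycoprotein of lipid-laden macrophages (chromosome 7, 23235967 to 23275108, plus strand), had 0.127, 0 and 0.203 CPM at day 10 and 656, 629 and 621 CPM at day 20 (6160-fold, adjusted p = 6.8e-48). SPP1, osteopontin, rose from 1.91, 1.78 and 2.13 CPM to 1991, 1902 and 1892 CPM (1000-fold). CHIT1, chitotriosidase, was at least 756-fold and the elastase gene MMP12 at least 659-fold higher than 0 counts. Neither gene had a read at day 10. Beside them, 12 of 12 genes of cholesterol export and storage rose, among them the exporters ABCA1 (32.8-fold, to between 203 and 227 CPM) and ABCG1 (25.5-fold) and the carrier APOE, which went from 68.4, 65.7 and 62.1 CPM to 934, 946 and 896 CPM. Cholesterol synthesis genes moved the other way: 17 of 22 fell, none rose and 5 were not called, with a median log2 fold change of -0.57. INSIG1 fell 3.39-fold, SQLE 2.81-fold and SREBF2, the master regulator of the pathway, 2.03-fold.

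All 23 tested cathepsins and lysosomal hydrolases rose, with a median log2 fold change of 1.76, and their summed level went from between 2361 and 2411 CPM to between 12672 and 13081 CPM. CTSB rose from 77.4, 78 and 71.6 CPM to 2244, 2203 and 2160 CPM, CTSL 28.2-fold and CTSS, the protease that trims the class II invariant chain, 158-fold. Subunits of the proton pump that acidifies lysosomes rose in 14 of 16 cases, mostly by less than 2-fold, with a median of 0.65. The largest change there was that of ATP6V0D2 (41.7-fold), a subunit of macrophages and osteoclasts.

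Complement genes rose in 13 of 13 cases, with a median of 4.89. The chains of C1q, the protein that starts the classical pathway, are made mainly by macrophages. C1QC rose from 0.635, 0.376 and 0.405 CPM to 341, 341 and 336 CPM (722-fold), and C1QA 892-fold. C1QB, from 2 counts at day 10, reached 127, 113 and 118 CPM. Fc receptors rose in 10 of 10 cases, with a median of 5.87 (4.32 with genes at 0 counts set to their bound), FCGR3A reaching 107, 103 and 99.1 CPM from 0, 0 and 0.135 CPM, though its close copy FCGR3B may share reads. Toll-like receptors and their adaptors rose in 16 of 17 cases. TLR2 went from between 0.381 and 0.778 CPM to between 139 and 144 CPM, and TLR8 from 0, 0.1 and 0.169 CPM to 46, 41.4 and 44.7 CPM. All 6 subunits of the phagocyte oxidase rose, CYBB, its catalytic core, from 12.1, 11.4 and 11.1 CPM to 794, 788 and 782 CPM and NCF1, an organising subunit, 114-fold.

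Most transcription factors of these lineages were higher at day 20. Of 22 myeloid factors 21 rose, with a median log2 fold change of 4.21, and ZEB2 alone fell (1.54-fold). SPI1 (PU.1) rose from 53.4, 56.4 and 56.3 CPM to 404, 396 and 395 CPM (7.19-fold, adjusted p = 9.3e-41), with no overlap. CEBPA rose 12.3-fold, CEBPE, the factor of specific granules, 41.8-fold, and GFI1 19.1-fold. IRF4 rose 53.8-fold and EGR2 50.1-fold.

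**Figure D3:**
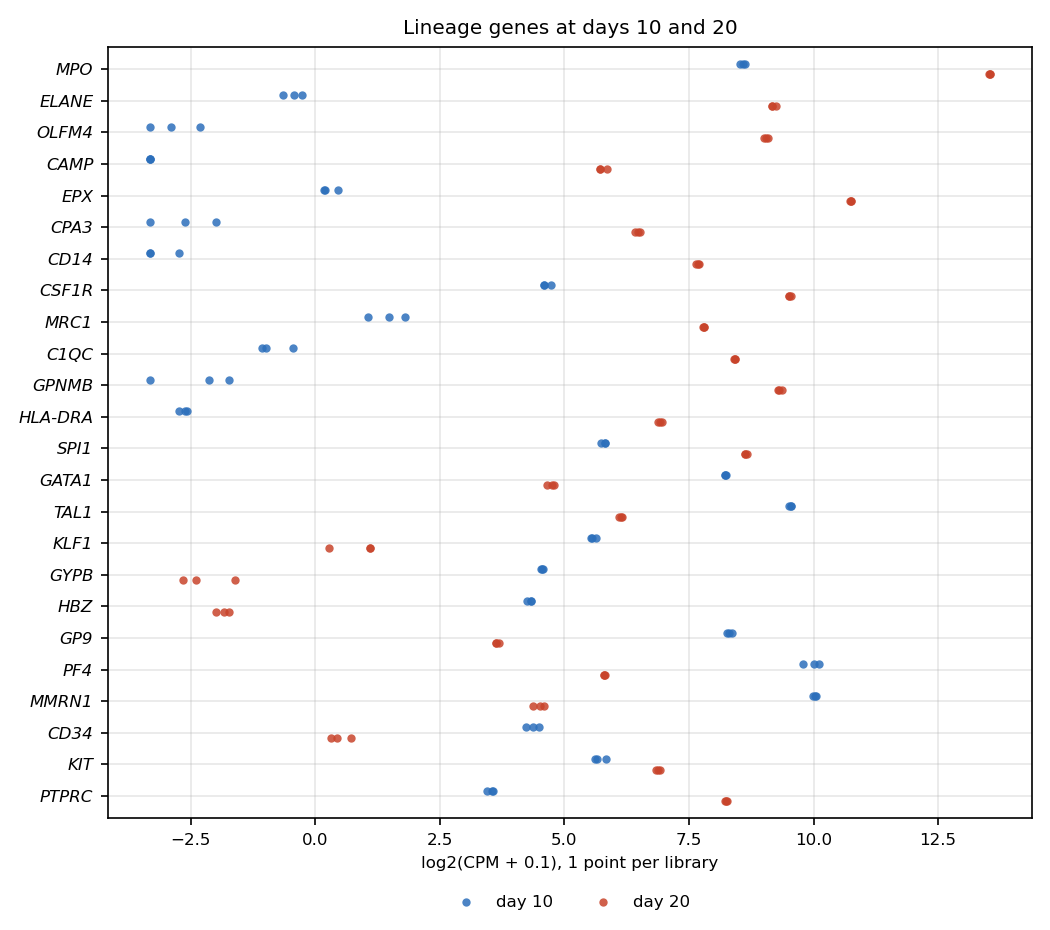
Lineage genes are shown as log2(CPM + 0.1), 1 point per library, with day 10 in blue and day 20 in red. The granulocyte and macrophage genes from MPO to SPI1 and PTPRC and KIT lie to the right at day 20, the red cell and platelet genes from GATA1 to MMRN1 and CD34 lie to the left, and the libraries of the 2 days do not overlap for any gene drawn.

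Antigen presentation by MHC class II, the system that shows peptides to CD4 T cells, rose in most of its parts. Class II genes are switched on together by CIITA, which acts through a conserved promoter module that includes an inverted CCAAT box. Promoters of 3 members that rose are shown for that reason, each as 120 bases from RefSeq (GRCh38.p14, minus strand, in the direction of the gene), with the letters GATTGG and their reverse complement in capitals. The windows are chr6:32666662-32666781 for HLA-DQB1, chr6:32953118-32953237 for HLA-DMA and chr6:33009600-33009719 for HLA-DOA.
HLA-DQB1: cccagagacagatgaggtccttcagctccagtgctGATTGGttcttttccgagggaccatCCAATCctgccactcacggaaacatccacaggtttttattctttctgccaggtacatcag
HLA-DMA: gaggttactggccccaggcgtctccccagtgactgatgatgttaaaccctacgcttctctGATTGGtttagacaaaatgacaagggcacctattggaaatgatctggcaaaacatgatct
HLA-DOA: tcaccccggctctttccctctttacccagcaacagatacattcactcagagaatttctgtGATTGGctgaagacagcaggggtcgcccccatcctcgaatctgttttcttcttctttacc
On either strand GATTGG was found in the promoters of 9 of the 14 listed genes in the table, 6 of them among the 9 that rose, against 15.7% of all promoters and 18.8% of those of tested genes. It is a description of letters in a fixed window and not of a site in use.

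Of 16 genes of the class II system 11 rose, 1 fell and 4 were not called. CIITA itself rose from 1.21, 0.627 and 1.79 CPM to 26.3, 31.7 and 25.6 CPM (23.9-fold, adjusted p = 1.1e-09). HLA-DRA, the α chain of HLA-DR (chromosome 6, 32439842 to 32445046, plus strand), went from 0.0635, 0.0502 and 0.0675 CPM to 125, 120 and 117 CPM (1910-fold, adjusted p = 5.4e-44). CD74, the invariant chain, rose 26.9-fold, from 15, 16 and 14.8 CPM to 424, 409 and 401 CPM. HLA-DQB1 rose 79-fold and HLA-DQA1, with 0 counts at day 10, at least 558-fold. The peptide loading genes HLA-DMB (108-fold) and HLA-DMA (6.56-fold) and the modulator HLA-DOA (5.5-fold) rose as well. HLA-DPB1 stood apart: its 21.5, 24 and 26.5 CPM at day 10 overlapped 20.5, 22.7 and 20.8 CPM at day 20 (adjusted p = 0.093, or 0.025 when day 10 replicate 1 is left out, which calls it lower), while its partner HLA-DPA1 rose 2.68-fold. The constitutive factor RFX5 was not called, and RFXANK fell 1.27-fold. HLA genes are polymorphic and alike, and reads can be shared among them.

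Genes of dendritic cells, which present antigen to T cells, rose in 17 of 17 cases (median 5.39, or 5.15 with bounds). CD1C went from 0.794, 0.502 and 0.27 CPM to 24.3, 26.1 and 24.7 CPM, CD1A rose 41.9-fold, and LAMP3, a marker of mature dendritic cells, was at least 663-fold above 0 counts. On the class I side 14 of 17 tested genes rose and 2 fell, with a smaller median of 1.16. HLA-B rose from 23.4, 22.6 and 22.8 CPM to 417, 391 and 393 CPM (17.5-fold) and B2M, the shared light chain, 3.5-fold. Inhibitory receptors of the myeloid surface rose in 16 of 17 tested cases, LILRB2 173-fold and HAVCR2 (TIM-3) from 0.857, 0.477 and 0.405 CPM to 63.5, 64.7 and 63.4 CPM. Of 13 Siglecs, sialic acid receptors that dampen immune cells, 12 rose, SIGLEC1 from between 5.94 and 6.98 CPM to between 271 and 289 CPM.

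Receptors for chemokines rose in 16 of 16 tested cases (median 5.02), for example CCR1, from 0.667, 1.41 and 1.59 CPM to 122, 121 and 130 CPM. CXCR4, the receptor that holds progenitors in bone marrow and thymus, rose 16.3-fold. Of 19 tested chemokine ligands 16 rose and 2 fell. CXCL8, which attracts neutrophils, went from 8.57, 8.41 and 8.47 CPM to 630, 619 and 618 CPM (73.4-fold), and CCL22 rose 255-fold. Inflammatory cytokines rose in 13 of 15 tested cases, IL1RN, the natural antagonist of IL-1, 201-fold and CSF1, the ligand of CSF1R, from 7.81, 8.28 and 8.41 CPM to 135, 135 and 141 CPM. The summed level of that list nevertheless went from between 1112 and 1142 CPM down to between 807 and 836 CPM, with TGFB1 called lower. Among 21 other cytokine receptors 18 rose, such as CSF3R, the G-CSF receptor (58-fold), and 3 fell. Leukotriene synthesis genes ALOX5 (43.3-fold) and ALOX5AP (26.4-fold) rose too.

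Many of the genes that fell furthest belong to red cells and platelets. GYPB and GYPE encode glycophorins of the red cell membrane. GYPB (chromosome 4, 143996104 to 144019345, minus strand) had 23, 23.7 and 23.2 CPM at day 10 and 0.0912, 0.229 and 0.0598 CPM at day 20, a 176-fold fall (log2 fold change -7.46, SE 0.29, adjusted p = 1.2e-25). GYPE fell 55.9-fold. Glycophorin genes are close copies, so reads may be divided among them. Of 19 red cell membrane genes 16 fell, 1 rose and 2 were not called (median -3.17). SPTB, β-spectrin of the membrane skeleton, fell from 199, 199 and 187 CPM to 4.26, 5.9 and 4.78 CPM (39-fold) and RHAG, the Rh-associated channel, from 315, 297 and 316 CPM to 11, 8.86 and 10.2 CPM. KEL, the Kell blood group protease, fell 4.42-fold, from 96.6, 102 and 99.5 CPM to 19.4, 22.8 and 25.2 CPM. The exception, CD36, rose from 6.03, 5.9 and 6.82 CPM to 181, 168 and 176 CPM (28.1-fold). CD36 is also a scavenger receptor of macrophages.

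Promoters of 3 of the genes that fell are given because GATA1, which binds GATA letters in red cell promoters, fell with them. Each is 120 bases from RefSeq (GRCh38.p14, minus strand, in the direction of the gene) with AGATAA in capitals. The windows are chr4:143905560-143905679 for GYPE, chr14:64879908-64880027 for SPTB and chr7:142962366-142962485 for KEL.
GYPE: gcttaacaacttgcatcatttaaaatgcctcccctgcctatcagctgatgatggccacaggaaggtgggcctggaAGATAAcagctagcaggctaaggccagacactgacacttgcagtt
SPTB: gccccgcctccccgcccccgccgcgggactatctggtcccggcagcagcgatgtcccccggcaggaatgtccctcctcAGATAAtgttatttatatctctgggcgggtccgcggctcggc
KEL: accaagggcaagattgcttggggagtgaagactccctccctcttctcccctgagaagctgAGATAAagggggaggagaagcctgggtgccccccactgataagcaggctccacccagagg
The motif begins 45, 42 and 62 bases before the start of the respective gene. On either strand AGATAA was found for 7 of the 13 red cell membrane genes in the table, for 4 of 15 megakaryocyte genes, for 1 of 14 erythroid and megakaryocytic transcription factors and for 1 of 2 globins, against 10.5% of all promoters and 6.27% of those of tested genes. All 7 red cell genes with a match fell, as did 3 of the 6 without one, a description with no test.

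Globin genes fell in 9 of 9 tested cases (median -4.78). The embryonic ζ-globin gene HBZ went from 20.1, 18.9 and 20.1 CPM to 0.152, 0.201 and 0.179 CPM (109-fold) and the fetal gene HBG2 from 234, 219 and 194 CPM to 5.78, 5.24 and 5.08 CPM (40.2-fold). HBG1 and HBG2 are nearly identical, so their separate values are uncertain. HBD fell 28.3-fold. Haemoglobin genes together took 0.0619% ± 0.00219 of counts at day 10 and 0.00269% ± 0.000209 at day 20 (SD, n = 3, exact permutation p = 0.1, the smallest possible).

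Of 22 genes of haem synthesis and iron handling 16 fell and 5 rose, with a median of -0.81. UROD, an enzyme of haem synthesis, fell 5.95-fold, the iron sensor TFR2 10.5-fold and the erythroid nuclear protein HEMGN from 92.5, 95 and 98.6 CPM to 1.58, 2.12 and 1.64 CPM. HMOX1, which breaks haem down, rose from 1.59, 1.51 and 1.28 CPM to 225, 216 and 208 CPM (147-fold). The ferritin chains that store iron rose as well, FTL from 829, 753 and 802 CPM to 4669, 4466 and 4443 CPM (5.7-fold) and FTH1 3.25-fold.

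All 20 megakaryocyte and platelet genes fell, with a median of -3.67, and their summed level went from between 19529 and 19679 CPM to between 1605 and 1625 CPM. PF4, platelet factor 4, had 1100, 882 and 1029 CPM at day 10 and 55.6, 55.9 and 55 CPM at day 20 (18.1-fold lower, adjusted p = 8.2e-12). MMRN1, multimerin of platelet granules, fell from 1016, 1057 and 1050 CPM to 23.9, 22.7 and 20.7 CPM (46.4-fold) and SELP, P-selectin, 32.3-fold. Subunits of the von Willebrand factor receptor fell together: GP5 52.4-fold, GP1BB 36.7-fold and GP9, from 327, 308 and 316 CPM to 12.8, 12.3 and 12.3 CPM, 25.4-fold. PF4V1 fell 75.5-fold and DGKI, a diacylglycerol kinase, 50.6-fold. Other genes among the 15 largest falls included the glutamate receptor gene GRM3 (121-fold), the transporter genes SLC35D3 (111-fold) and SLC30A10 (54.3-fold), SP8 (97.2-fold) and the GABA receptor gene GABRQ (67.5-fold).

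The factors that direct red cells and platelets fell in 8 of 15 cases and rose in 5. GATA1 fell from 298, 302 and 298 CPM to 25.1, 27.4 and 26.9 CPM (11.3-fold, adjusted p = 2e-43) and TAL1 from 731, 743 and 750 CPM to 68.2, 71 and 69.7 CPM (10.6-fold). KLF1, the erythroid Krüppel-like factor, fell 27.4-fold, ZFPM1, the GATA1 cofactor, 14.5-fold and GFI1B 11.8-fold. BCL11A, the repressor of fetal globin, rose from 1.84, 2.08 and 1.59 CPM to 23.2, 20.5 and 24 CPM. KLF2 rose 26.4-fold.

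Stem and progenitor genes showed no common direction: of 22, 10 rose and 11 fell, with a median of -0.48. Besides CD34, the falls included ANGPT1 (16.2-fold), ADGRG1 (6.83-fold), MEIS1, a partner of HOX proteins (233, 248 and 252 CPM, then 38.2, 42.4 and 36 CPM), and MECOM (1.66-fold). The rises included PROM1 (CD133), from 2.16, 1.63 and 1.18 CPM to 9.7, 9.86 and 11.7 CPM, HLF, from 14 to 90 summed counts, and THY1 (1.84-fold). Endothelial genes fell in 18 of 22 cases and rose in 3 (median -2.26). CDH5, VE-cadherin, fell from 38.1, 38.7 and 39.6 CPM to 2.25, 1.83 and 1.43 CPM, PLVAP 17.9-fold, SOX18 13.8-fold and ESAM 13.6-fold. ENG, endoglin, which activated macrophages also carry, rose from 53.6, 51.5 and 53.1 CPM to 280, 273 and 266 CPM, and LYVE1 rose 1.67-fold. KDR, the VEGF receptor, fell 1.08-fold, a call lost with library-size scaling (adjusted p = 0.61), without a filter on low counts (0.074) and in a fit of the 6 libraries alone (0.093).

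Beyond the marker panel, T-cell genes were mixed. The γ constant genes of the T-cell receptor rose: TRGC1 (chromosome 7, 38257879 to 38265678, minus strand) from 1.71, 1.53 and 1.82 CPM to 25.5, 25.9 and 22.8 CPM (14.7-fold, adjusted p = 4e-26) and TRGC2 from 0.699, 0.878 and 0.574 CPM to 15.3, 13.6 and 12.8 CPM (19-fold). The 2 are near copies and may share reads. TRDC, the δ constant gene, had 0, 0.125 and 0.203 CPM at day 10 and 0.943, 2.03 and 1.4 CPM at day 20 (13-fold, adjusted p = 9.1e-08). All 3 were higher in each day 20 library. The α and β constant genes TRAC, TRBC1 and TRBC2 and the CD8 gene CD8A were too low to be tested, with 21, 0, 8 and 5 summed counts at day 20. CD247, the ζ chain, was not called on 6 and 22 summed counts (adjusted p = 0.089), but leaving out day 10 replicate 3 (adjusted p = 0.04) or day 20 replicate 2 (0.019) gave a call. Myeloid lists moved in the same libraries, monocyte and macrophage genes summing to between 5996 and 6245 CPM at day 20 against 40.2 to 45.2 CPM for the 11 genes of the T-cell receptor and CD3. The part of other cell types in the T-cell values was not tested.

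Among 16 tested T-lineage transcription factors 11 rose and 4 fell (median 0.71). RUNX3, which also acts in myeloid and dendritic cells, rose from 1.75, 2.36 and 2.6 CPM to 101, 98.6 and 104 CPM (45-fold), IKZF3 from 2 to 497 summed counts and IKZF1 1.66-fold. LEF1, a partner of TCF7, fell from 16.2, 15.1 and 14.3 CPM to 3.5, 3.41 and 2.81 CPM. T-cell signalling genes fell in 8 of 14 tested cases and rose in 5, with a median of -2.05. PRKCQ, protein kinase C θ, fell from 114, 116 and 110 CPM to 6.78, 6.99 and 9.41 CPM, FYN from 197, 187 and 181 CPM to 26, 24 and 22.7 CPM, and CD6 14.2-fold. Platelets also use PRKCQ and FYN. ZAP70 rose 1.58-fold, a call lost without day 10 replicate 2 or 3 (adjusted p = 0.052 for each) or day 20 replicate 2 or 3 (0.077 and 0.062).

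Thymocyte surface markers rose in 12 of 15 tested cases (median 3.1), but several of them are shared with myeloid cells. CD4, also carried by human macrophages, went from 24, 22.8 and 26.5 CPM to 178, 163 and 161 CPM, and CD38 rose 35-fold. Of 14 tested factors of γδ and innate-like fate 12 rose, EGR1 from 46.7, 53.1 and 46 CPM to 548, 528 and 555 CPM, MAF 29.4-fold and ID3, a target of strong T-cell receptor signals, 1.45-fold. EGR2, MAF and ID2 are also on the list of myeloid factors, and EGR1, EGR2 and EGR3 on that of immediate early genes. ZBTB16 (PLZF) fell from 234, 230 and 232 CPM to 34, 36.4 and 32.1 CPM. Recombination and end-joining genes fell in 8 of 12 tested cases, for example NHEJ1 (3.23-fold) and HMGB2 (2.3-fold). Cytotoxic genes rose in 7 of 13 tested cases. NKG7 went from 1.52, 1.98 and 2.23 CPM to 71.9, 66.2 and 65.1 CPM, PRF1, perforin, was not called (adjusted p = 0.76), and GZMB, granzyme B, fell from 45 to 12 summed counts (adjusted p = 0.033), a call lost without any 1 of the 6 libraries.

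The Notch pathway, addressed by DLL4 in the medium from day 10, changed in both directions. Among receptors, NOTCH2 rose from 59.5, 68 and 65.8 CPM to 250, 246 and 264 CPM (3.93-fold), NOTCH3 2.85-fold, and NOTCH4, an endothelial receptor, fell 8.51-fold. Among ligands, the cells' own DLL4 fell from 13.2, 10.7 and 10.7 CPM to 0.882, 0.974 and 0.687 CPM, and JAG1 rose 1.66-fold. RBPJ, the DNA-binding partner, rose 2.03-fold, and LFNG, the glycosyltransferase that tunes ligand choice, 13.7-fold. Of 15 Notch target genes 6 rose, 6 fell and 3 were not called, with a median of -0.07 that turned to 0.02 with library-size scaling and to 0.01 without day 20 replicate 3. At day 15, passed over by this comparison, 7 of the 15 lay above both days and 3 below both. HES1 was at 15.6, 13.5 and 14 CPM and then 13.7, 15.1 and 12.3 CPM (adjusted p = 0.56). NRARP fell 3.84-fold, HEY2 4.99-fold and HES4 2.72-fold. DTX1 rose from 0.572, 1.13 and 0.641 CPM to 4.5, 5.3 and 5.44 CPM, and IL2RA from 2 summed counts to between 6.1 and 7.15 CPM. For the other factors in the medium, the receptor genes FLT3 (0 counts, then 1.95, 3.27 and 3.08 CPM, at least 93-fold higher) and IL2RG, the common γ chain (11.3, 11.5 and 9.55 CPM, then 85.1, 77.5 and 84.1 CPM), rose beside KIT and IL7R.

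Proliferation genes fell together. All 25 genes of DNA replication and all 25 of mitosis were lower at day 20, with medians of -1.36 and -1.51. MKI67, the proliferation antigen, went from 774, 862 and 869 CPM to 283, 301 and 303 CPM (2.83-fold), RRM2, which makes deoxynucleotides, from 499, 523 and 497 CPM to 120, 117 and 118 CPM (4.28-fold), and UBE2C 8.32-fold. In G1, 13 of 19 genes fell and 6 rose. CCND3 fell from 1044, 999 and 1015 CPM to 168, 170 and 170 CPM. Inhibitors moved in both directions. CDKN2B rose 8.77-fold, to a mean of 9.59 CPM, and CDKN1A and CDKN1C rose too. CDKN2D (7.08-fold), CDKN2C (4.14-fold), CDKN2A and CDKN1B fell.

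Housekeeping genes moved by less. Nuclear genes of oxidative phosphorylation fell in 23 of 28 cases, none by 2-fold (median -0.44), for example ATP5F1B (1.8-fold), and SDHD rose 1.22-fold. Of 18 translation factors 14 fell, EIF5A 2.12-fold and NCL 1.89-fold, and EIF1 rose 1.34-fold. Of 13 mitochondrially encoded genes 8 fell, MT-CO3 1.22-fold, and MT-CO1 rose 1.06-fold, a call lost with DESeq2 (adjusted p = 0.059) and without day 10 replicate 1 (0.051) or day 20 replicate 1 (0.09). MT-ND4L (1.2-fold lower) lost its call under 5 alternatives. In glycolysis 13 of 21 genes fell, HK1 3.39-fold, while HK2 (4.27-fold), HK3 (225-fold), the hexokinase of myeloid cells, and the glucose transporter SLC2A1 (79.5, 79.4 and 77.9 CPM, then 574, 572 and 553 CPM) rose.

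**Figure D4:**
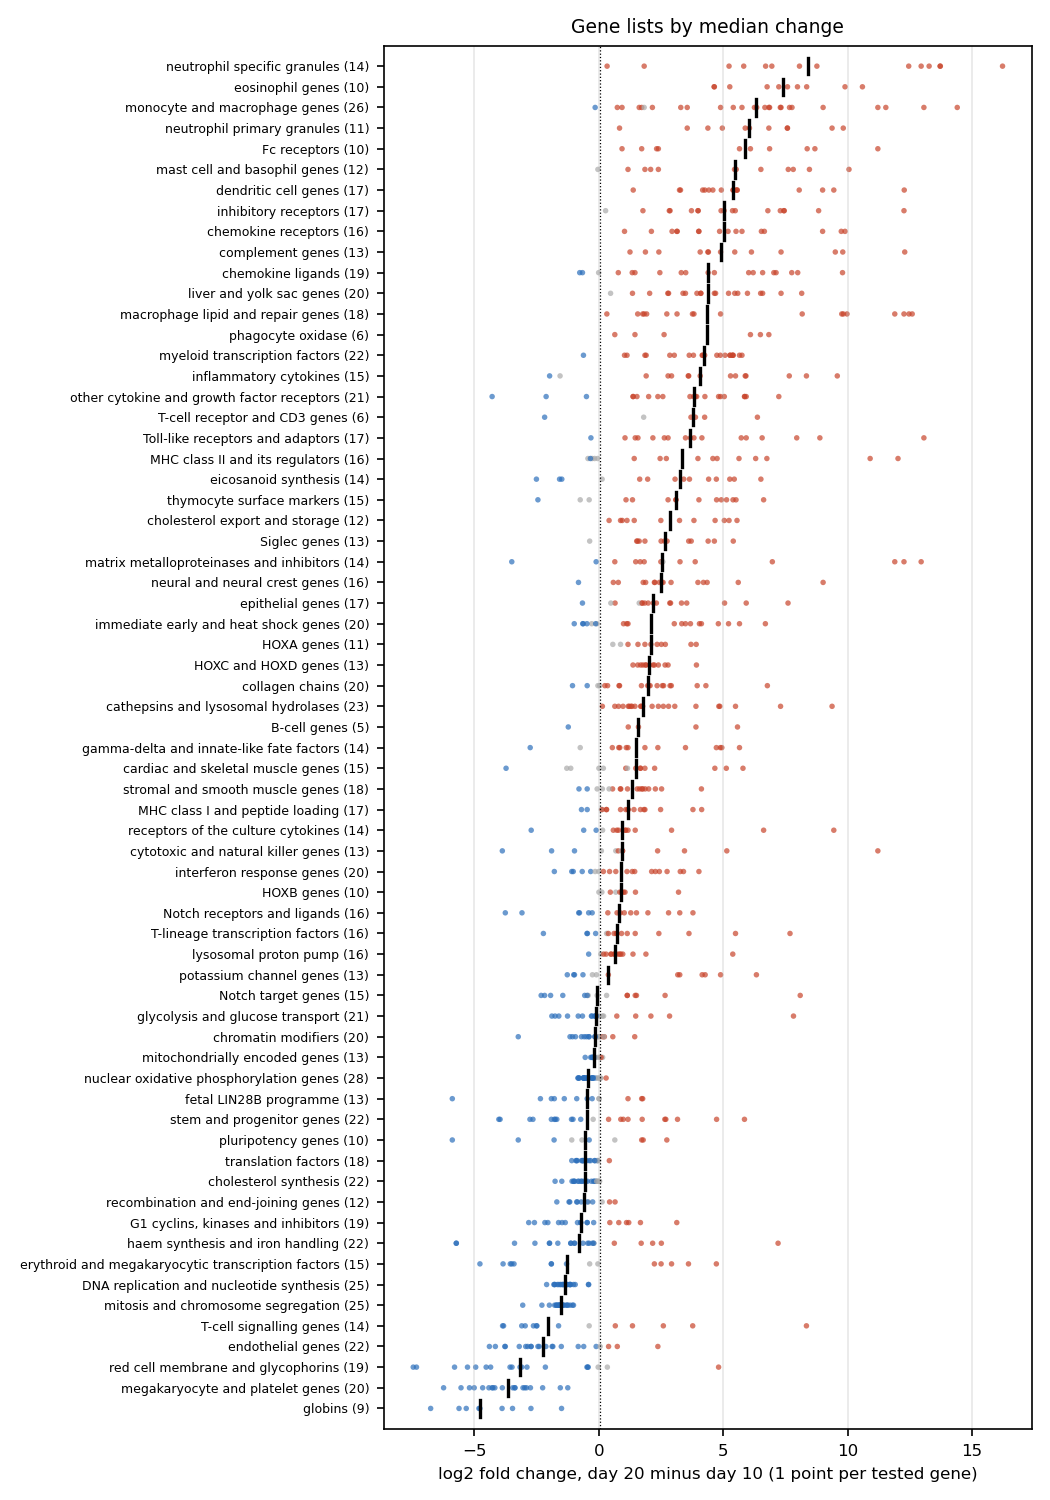
Each row is a gene list with its number of tested genes, each point is 1 gene placed by its log2 fold change (day 20 minus day 10), red where called higher, blue where called lower and grey where not called, and the black bar is the median of the list. The dotted line is the median of all tested genes, 0.03. Neutrophil specific granule and eosinophil genes head the order and megakaryocyte and globin genes close it.

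Genes of lineages outside blood also rose. Collagen chains rose in 16 of 20 cases (median 1.99): COL3A1 went from 558, 541 and 537 CPM to 4079, 4059 and 4163 CPM (7.52-fold, adjusted p = 6.6e-48) and COL1A1 from 265, 257 and 258 CPM to 1023, 1065 and 1058 CPM. Stromal genes rose in 13 of 18 cases, DCN, decorin, 17.3-fold, LUM, lumican, from 106, 111 and 109 CPM to 450, 431 and 429 CPM, and PDGFRB 3.62-fold, while TPM2 fell 1.74-fold. Liver and yolk sac genes rose in 19 of 20 cases (median 4.37). ALB, albumin, went from 0.159, 0.602 and 0.473 CPM to 127, 117 and 123 CPM (285-fold), AFP, α-fetoprotein, from 10.5, 11.6 and 11.7 CPM to 423, 416 and 418 CPM (37.1-fold), and TTR 62.8-fold. The groups were wide apart for each of these genes.

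Of 17 tested epithelial genes 14 rose and 1 fell. CDH1, E-cadherin, had 0.953, 0.929 and 0.608 CPM at day 10 and 159, 168 and 165 CPM at day 20 (194-fold), and KRT8 rose from 89.2, 95.9 and 89.7 CPM to 673, 675 and 640 CPM. EPCAM rose 1.57-fold, and TJP1 fell 1.58-fold. Neural and neural crest genes rose in 15 of 16 tested cases at mostly low levels, STMN2 from 0.127, 0 and 0.203 CPM to 54.2, 53.4 and 52.2 CPM (516-fold) and DCX 18.4-fold, while NES fell 1.77-fold and PAX6 was too low to be tested. Heart muscle genes MYL7 (55.5-fold, to between 9.59 and 12.8 CPM) and TNNT2 (34.7-fold) rose, and MYL4, the embryonic and atrial light chain, fell 13.3-fold. How far such cells accompanied the blood cells in each library was not tested.

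Genes of developmental age and position changed as well. LIN28A, an RNA-binding protein of pluripotent and fetal cells, fell from 301, 299 and 298 CPM to 5.57, 4.59 and 5.05 CPM (59.1-fold, adjusted p = 3.1e-34), and LIN28B, its fetal paralogue, 2.63-fold. DNMT3B fell 9.47-fold. HMGA1 fell from 1506, 1506 and 1516 CPM to 409, 401 and 393 CPM, and IGF2 rose 3.4-fold. The pluripotency factor gene POU5F1 was below 1 CPM in every library and was not called (adjusted p = 0.12), except with limma-voom (0.017) and when day 20 replicate 1 was left out (0.015). HOX genes, which mark position along the body axis, rose without a called fall: 9 of 11 HOXA, 7 of 10 HOXB and 13 of 13 tested HOXC and HOXD genes. HOXA10 went from 1.27, 1.13 and 1.96 CPM to 18.8, 19.2 and 18 CPM (13-fold), HOXA9 rose 2.97-fold and HOXB3 1.99-fold.

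Immediate early and interferon genes gave mixed counts. FOS rose from 7.65, 7.96 and 7.83 CPM to 820, 796 and 802 CPM (103-fold), FOSB 37-fold and ATF3 17.4-fold, and 13 of 20 genes of that list rose while 5 fell. Among 20 interferon response genes 13 rose and 5 fell (median 0.9), OASL 16.2-fold and IFI44L 9.67-fold upward and ISG15 3.45-fold downward. The summed level of the interferon list was lower at day 20 (1348 to 1383 CPM) than at day 10 (1568 to 1619 CPM), so sum and median differ in direction.

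A comparison of days 10 and 20 alone does not show the path between them. Day 15 libraries lay above all 6 libraries of the other days for 1496 (20.2%) of the 7400 genes that rose and below all of them for 1154 (15.6%). Of the 6906 genes that fell, 2264 (32.8%) were above both days at day 15 and 1983 (28.7%) below both. Among the 5877 genes not called, 1981 (33.7%) were above and 1188 (20.2%) below. These positions depend on the scaling. TMM factors were 0.753 to 0.759 at day 15, against 1.089 to 1.098 at day 10 and 1.153 to 1.172 at day 20. Low factors raise the day 15 CPM relative to scaling by library totals alone. The day 15 counts and sums were not recomputed under another scaling. All 20 megakaryocyte genes, 7 of 9 globins and 11 of 19 red cell membrane genes were highest at day 15: their summed megakaryocyte level reached between 60644 and 61063 CPM then. KEL had a mean of 1771 CPM at day 15 and TAL1 of 2385 CPM. PTCRA, lower at day 20 than at day 10, had a mean of 183 CPM at day 15, the day also labelled T progenitor cells. Replication and mitosis genes followed the opposite course, 23 and 24 of 25 being lowest at day 15, as were 9 of 10 HOXB genes. Interferon genes were highest at day 15 in 17 of 20 cases, with a summed level of 10946 to 11022 CPM. Notch target genes summed to 395 to 409 CPM at day 15, of which PTCRA held a mean of 183 CPM. Their sums were 168 to 178 CPM at day 10 and 177 to 187 CPM at day 20. Eosinophil genes were highest then in 6 of 10 cases, summing to 9757 to 10312 CPM against 6179 to 6393 CPM at day 20. Neutrophil primary granule, complement and dendritic cell genes showed no such turn, since none of them lay outside the other days at day 15 on either side.

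**Figure D5:**
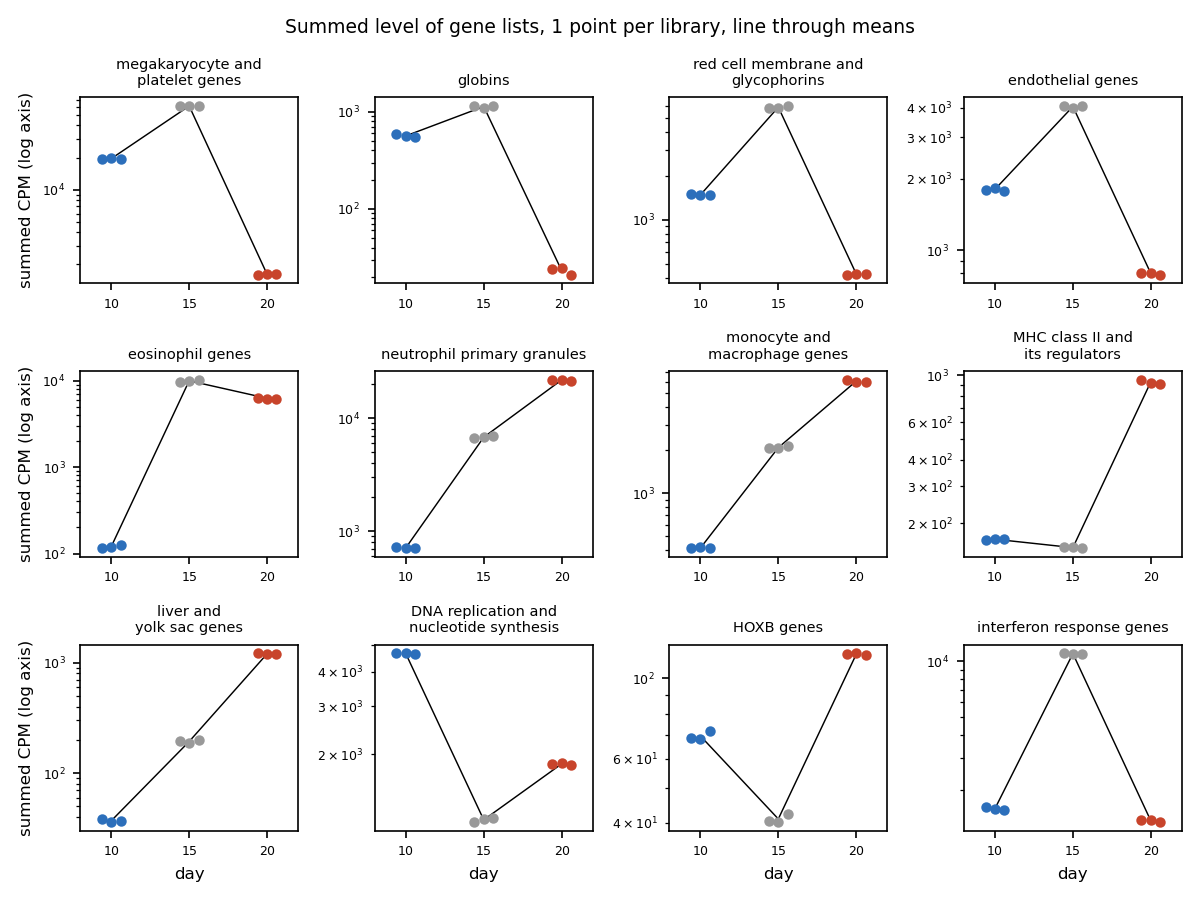
Summed CPM of 12 gene lists at days 10 (blue), 15 (grey) and 20 (red), on a log axis of its own in each panel, with 1 point per library and a line through the day means. The sums of the platelet, globin, red cell, endothelial, eosinophil and interferon lists peak at day 15 (7 of the 22 endothelial genes do so singly). Those of replication and HOXB genes dip there, and those of primary granule, monocyte and liver genes climb throughout.

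Genes present on 1 of the days only were all gains. At 0 counts in the 3 day 10 libraries and at least 1 CPM in each day 20 library were 83 genes, 70 of them with a gene name that is not a clone, antisense or LINC name, and no gene met the reverse condition. Besides those given above, the highest of them were ADGRE3, an adhesion receptor of myeloid cells (42, 37.2 and 38.1 CPM, at least 1320-fold), ADAMDEC1, a metalloproteinase of macrophages (35.7, 33.7 and 27.9 CPM, at least 1090-fold), the survival gene BCL2A1 (at least 1070-fold) and FPR1, the formyl peptide receptor that guides phagocytes to bacteria (25.2, 23.6 and 26.8 CPM, at least 848-fold). CEACAM6, a granulocyte adhesion molecule, was at least 723-fold higher. For each of them every day 20 library stood far above the floor of 3 counts.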

How the data were processed

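RNA sequencing covered 12 libraries, and 6 of them, 3 each at days 10 and 20 by the labels, were compared. The values deposited by the authors are whole-number read counts, 1 for each gene in each library, without normalisation. GRCh38 is the genome build in the submitters' processing notes. Aligner, counter, annotation and strand handling were not given in the sources used here, so the values of overlapping or antisense gene pairs are uncertain. Of 36601 gene IDs, 25321 matched a symbol, and the 11280 without one held 0.441% of counts. Coordinates are from GENCODE release 29 (GRCh38).

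The test was run with edgeR 4.0.16 (R 4.3.3): filterByExpr (minimum count 10) left 20183 genes, TMM scaling, and 1 robust quasi-likelihood fit to all 12 libraries without covariates (common biological coefficient of variation 6.03%), with glmQLFTest of day 20 against day 10 and Benjamini-Hochberg adjustment over all tested genes. TMM factors ran from 0.753 to 1.172. The test was also run on simulated counts in which few genes changed, which leaves its error rates unchecked where most genes change. Replicates of a day differed beyond the sampling noise of independently counted reads (reduced chi-square 3.58 to 5.27 over days 10 and 20). Replicate numbers did not pair libraries between the days (correlations of deviations 0.002 to 0.005). A floor is 3 counts over a day's libraries together, or 0.0297 CPM for day 10 and 0.0296 CPM for day 20. Floors and exact 95% intervals reflect counting error alone, because no molecular identifiers were counted and reads are not independent molecules. A count of 2 was more frequent than a count of 1 in all 6 libraries. The noise assumed for independent reads, the floors and the intervals may therefore be too small. Promoters came from a RefSeq table (GRCh38.p14), matched by symbol for 14 of 16 class II, 13 of 19 red cell membrane and 20 of 26 monocyte and macrophage genes.

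The 66 gene lists, the comparison and the genes followed were chosen with earlier results of these data known. Some genes are on several lists, so the counts of different lists are not independent. The naming rule took a fixed panel, the 15 largest rises and 15 largest falls (called, no overlap, 10 CPM or more where higher, no clone, pseudogene, antisense or LINC name), up to 5 called members at 5 CPM or more per list, and the 10 highest genes with 0 counts on the other day. Further list members, mostly those low or opposite to their list, were named after their values were seen. Not every gene named by that rule is reported here. Alternatives were DESeq2 1.42.0 and its size factors, library-size scaling, removal of mitochondrially encoded, ribosomal protein and haemoglobin genes, other filters, limma-voom (limma 3.58.1), a replicate block, the 6 libraries alone, an adjusted p under 0.01, a test against a 1.5-fold change, and leaving out each library.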

Additional observations from a re-analysis of the deposited data

How the results depend on the processing

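The numbers of genes called between days 10 and 20 were 7400 higher and 6906 lower, and 5022 and 2390 with a change of at least 2-fold. They stayed within 1.5 times of these values under all alternatives but one: a test against a minimum change of 1.5-fold left 5281 higher and 3223 lower. Other ranges were 6646 (stricter filter) to 7967 (no filter) higher and 6200 (adjusted p under 0.01) to 7111 (limma-voom) lower. Leaving out 1 of the 12 libraries gave 7211 to 7552 higher, 6585 to 6966 lower, 4994 to 5174 at least 2-fold higher and 2317 to 2437 at least 2-fold lower. The median log2 fold change of all genes moved from 0.03 to 0.12 with library-size scaling.

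The labels give the days the same replicate numbers, but libraries of the same number did not deviate together, so they share only a number. With the replicate number as a block, 7290 genes were higher and 6818 lower, 4955 and 2360 by at least 2-fold. Among the genes named, BCL11B lost its call under the block (log2 fold change 1.42, adjusted p = 0.065).

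For 401 genes followed singly, 8398 values were recomputed, leaving out the adjusted p under 0.01 and the test against a 1.5-fold change. Of these values 54 lost their call, 16 gained one and none reversed, among 17 genes in all. GATA3 passed under 7 alternatives (adjusted p from 0.014 with library-size scaling to 0.047), and RAG1 passed without day 10 replicate 1 (0.036) or day 20 replicate 1 (0.015). Of 1384 list medians recomputed, 2 changed sign, both of the Notch target genes, at 0.02 with library-size scaling and 0.01 without day 20 replicate 3. That median, -0.07 as reported, ranged from -0.15 to 0.01 when 1 library was left out. Depth limits the CD3 genes and LCK, which rest on 33 counts or fewer a day.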
